A study of Mus musculus with 12 samples.

Results

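The genes described here encode the nuclear-encoded subunits of the respiratory chain. They were chosen by symbol alone, as names starting Nduf followed by a, b, c, s or v and a digit, Sdha to Sdhd, names starting Uqcr, Cox4 to Cox8 followed by a, b or c, and names starting Atp5. The rule found 86 of the 41214 genes in the count tables, after 6 symbols of pseudogenes and the Ndufaf assembly factors were left out. By symbol, 40 belong to complex I, 4 to complex II, 8 to complex III, 17 to complex IV and 17 to complex V. A filter on low counts left 76 of them, and 13822 genes in all, for testing. The rule does not reach Cox4i1, Cox4i2, Ndufab1, Cyc1 or Cycs, which are given as a list of their own, and it counts Ndufa4 with complex I although its protein is known as part of complex IV.

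The cells were leukaemic cells of C57/BL6 mice, and both groups carry the NUP98-HOXD13 transgene, a nucleoporin-homeobox fusion known to cause myelodysplastic disease and leukaemia. One group is Gfi1 KI/wt, labelled het for the RNA libraries and called KI here, and the other is Gfi1 KD/KD, labelled homo and called KD here. Each group had 2 mice and 1 RNA library per mouse, and the comparison asks how leukaemia with the KD alleles differs from leukaemia with the KI allele. Gfi1 is a transcriptional repressor needed for neutrophil development. The labels do not spell out KI and KD, and give no sort, age, disease stage or promoter of the transgene.

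The respiratory chain sits in the inner mitochondrial membrane. Complexes I and II pass electrons from NADH and succinate to ubiquinone, complex III passes them on to cytochrome c, complex IV reduces oxygen, and complex V uses the proton gradient that complexes I, III and IV build to make ATP. Every complex but complex II joins subunits encoded in the nucleus with subunits encoded in mitochondrial DNA. The nuclear genes are transcribed largely as housekeeping genes, from promoters at which the factors NRF1, GABP (an ETS factor) and YY1 are known to act. Acute myeloid leukaemia cells are known for their reliance on oxidative phosphorylation.

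Promoters are shown because most of these genes moved up and down together between libraries. RefSeq promoters (GRCm38.p6, from 250 bases before to 50 bases after the start) were at hand for 63 of the 76 tested genes, 68 promoters in all. Letters of 3 motifs were searched on both strands, GCGCATGC for NRF1, CCGGAAG for ETS factors and AAGATGGC for YY1; no motif contains another. Sdhb and Uqcr11 hold the NRF1 and the ETS letters, as do Atp5k, Atp5l and Cox6a1. Ndufv3, whose share of the subunits' counts differed most apart from the barely counted Cox6b2, holds none of the 3. At least 1 of the 3 motifs was found in 29 of the 68 promoters (42.6%), so most promoters hold none. A link between motifs and levels was not tested. Each promoter is written on the gene's strand, 5′ to 3′, with the matched letters of the motifs, or of their reverse complement, in capitals.

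Sdhb, chr4:140961021-140961320, plus strand: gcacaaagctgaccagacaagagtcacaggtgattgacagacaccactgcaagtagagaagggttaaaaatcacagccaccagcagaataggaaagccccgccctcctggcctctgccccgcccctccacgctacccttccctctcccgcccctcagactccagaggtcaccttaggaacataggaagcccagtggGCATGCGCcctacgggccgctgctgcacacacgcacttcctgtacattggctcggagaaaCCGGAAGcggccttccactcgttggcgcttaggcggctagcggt

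Uqcr11, chr10:80406772-80407071, minus strand: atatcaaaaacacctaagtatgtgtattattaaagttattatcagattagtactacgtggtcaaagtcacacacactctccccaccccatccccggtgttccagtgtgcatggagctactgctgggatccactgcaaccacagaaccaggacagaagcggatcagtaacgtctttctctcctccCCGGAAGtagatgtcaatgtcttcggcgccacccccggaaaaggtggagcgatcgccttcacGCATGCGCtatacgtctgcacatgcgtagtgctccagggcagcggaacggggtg

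Ndufv3, chr17:31519865-31520164, plus strand: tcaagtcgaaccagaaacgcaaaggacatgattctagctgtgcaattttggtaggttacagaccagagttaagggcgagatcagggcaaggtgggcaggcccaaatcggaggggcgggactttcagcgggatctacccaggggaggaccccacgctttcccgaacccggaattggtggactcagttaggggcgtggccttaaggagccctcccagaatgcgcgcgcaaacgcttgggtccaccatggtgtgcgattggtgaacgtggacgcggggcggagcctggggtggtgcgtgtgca

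The NRF1 letters were in 10 of the 68 promoters of the subunits (14.7%), against 5.07% of the promoters of all genes tested and 2.71% of all 32851 promoters in the table. The ETS letters were in 16 of them (23.5%), against 16.9% and 8.86%. The YY1 letters were in 9 (13.2%), against 4.3% and 2.75%. By complex this was 7 of 34 promoters in complex I, 2 of 16 in complex V and 0 of the 3, 5 and 10 in complexes II, III and IV. A match is a run of letters, not a measured binding site.

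No subunit differed between the genotypes beyond the spread of the libraries, in any complex. With edgeR's quasi-likelihood test, 0 of the 76 subunits had an adjusted p under 0.05, where 0% of all genes tested did. At an unadjusted p under 0.05 there were also 0 subunits, against a background of 9.63% (1331 of 13822 genes). DESeq2 called 0 subunits where it called 1.13% of the genes with an adjusted p, and limma-voom called 0. The fitted log2 fold change of KD over KI had a median of 0.00 over the 76 subunits and of -0.06 over all genes. It was under 0.3 in size for 68 subunits (89.5%), against 44.6% of all genes, and 0 subunits reached 1, against 23.0% of all genes. These counts are for the TMM scaling described below. The subunits moved together between libraries, so the counts are not 76 separate results. With library size alone the median was 0.46 in complex I, 0.67 in complex II, 0.43 in complex III and 0.46 in complex IV. Over all genes it was then 0.37. For 39.5% of the subunits the standard error was smaller than that of the median gene. The intervals were wide: the median standard error of a subunit was 0.48, and the 95% intervals of the subunits with at least 20 CPM ran from -2.18 to 1.59, so a change of any one gene was bounded only loosely.

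**Figure D1:**
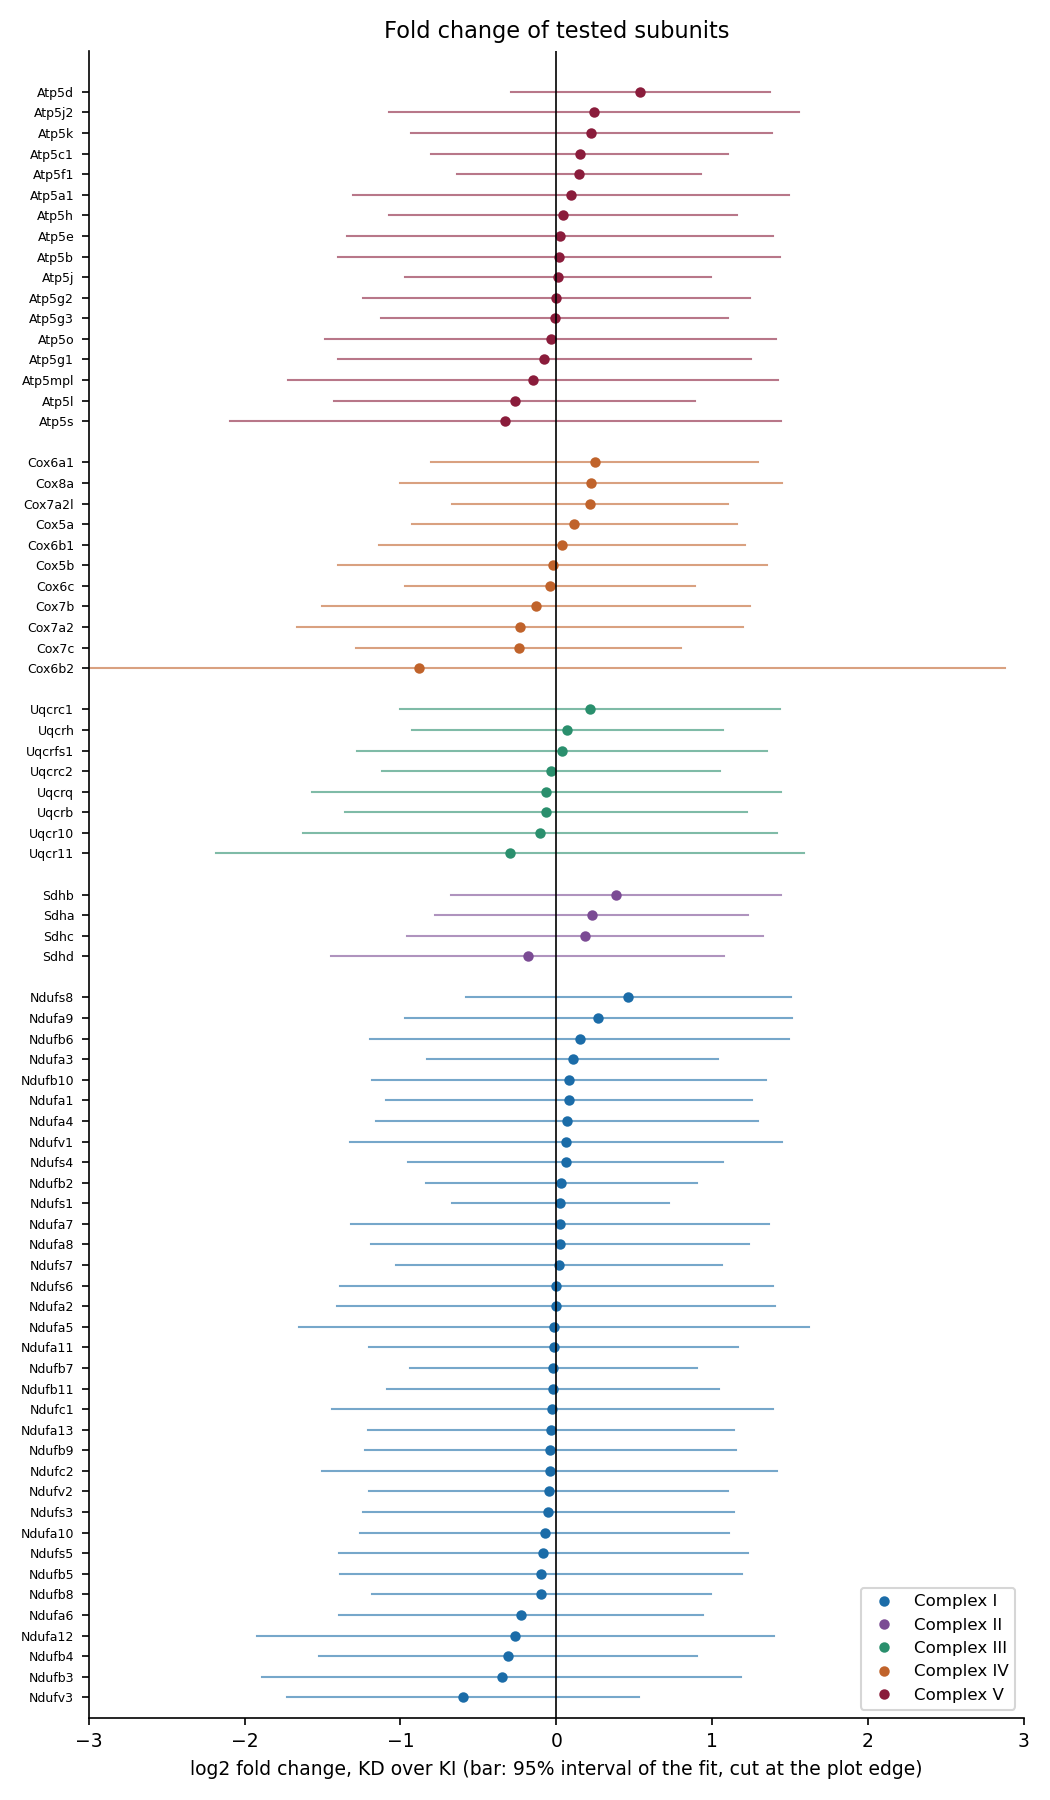
Fitted log2 fold change of KD over KI for tested subunits (points) with the 95% interval of the edgeR fit (bars, cut at the left edge for Cox6b2), grouped by complex. Every interval shown crosses 0, and all points shown but Cox6b2 lie between -0.60 and 0.54.

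What did differ was the level from library to library, and it did so for nearly all subunits at once. With 1 library per mouse, mouse and library cannot be told apart. Counts scaled to library size and by TMM (CPM) were summed over the 86 genes, and the sums were 2750 CPM (KI replicate 1), 6521 CPM (KI replicate 2), 3965 CPM (KD replicate 1) and 5626 CPM (KD replicate 2). With this scaling the KD libraries lay between the KI libraries. With library size alone the sums were 2632 and 5073 CPM in KI and 4707 and 6364 CPM in KD. KD replicate 2 was then highest. The groups overlap in both. The mean was 4636 ± 2666 CPM (SD, n = 2) in KI and 4795 ± 1175 CPM (SD, n = 2) in KD. The log2 difference was 0.16 (exact two-sided permutation test, p = 1, where 2 against 2 cannot go below 0.333). It was -0.33 without KI replicate 1, 0.85 without KI replicate 2 and -0.10 without KD replicate 2.

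With TMM the subunits' sums ran, from low to high, KI replicate 1, KD replicate 1, KD replicate 2 and KI replicate 2. This order was taken from the sums, so counting it in the same subunits favours them over other genes. It was found with TMM in 60 of 76 subunits (78.9%), against 15.0% of all genes tested. RLE, upper quartile and protein-coding scaling gave 57 to 59 subunits, but library size alone gave 6, against 2.93% of all genes, with KD replicate 2 highest for 67. With TMM, KI replicate 1 was the lowest library for 71 subunits (73 with library size alone) and KI replicate 2 the highest for 63 (6 with library size alone). KD replicate 2 stood above KD replicate 1 for 73. The median fold of KI replicate 2 over KI replicate 1 was 2.30 over the subunits and 1.01 over all genes. By complex this median was 2.29 in complex I, 2.097 in complex II, 2.64 in complex III, 1.97 in complex IV and 2.27 in complex V. Both KD libraries lay on one side of both KI libraries for 1 subunit, Atp5d (1.32%), against 38.0% of all genes.

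**Figure D2:**
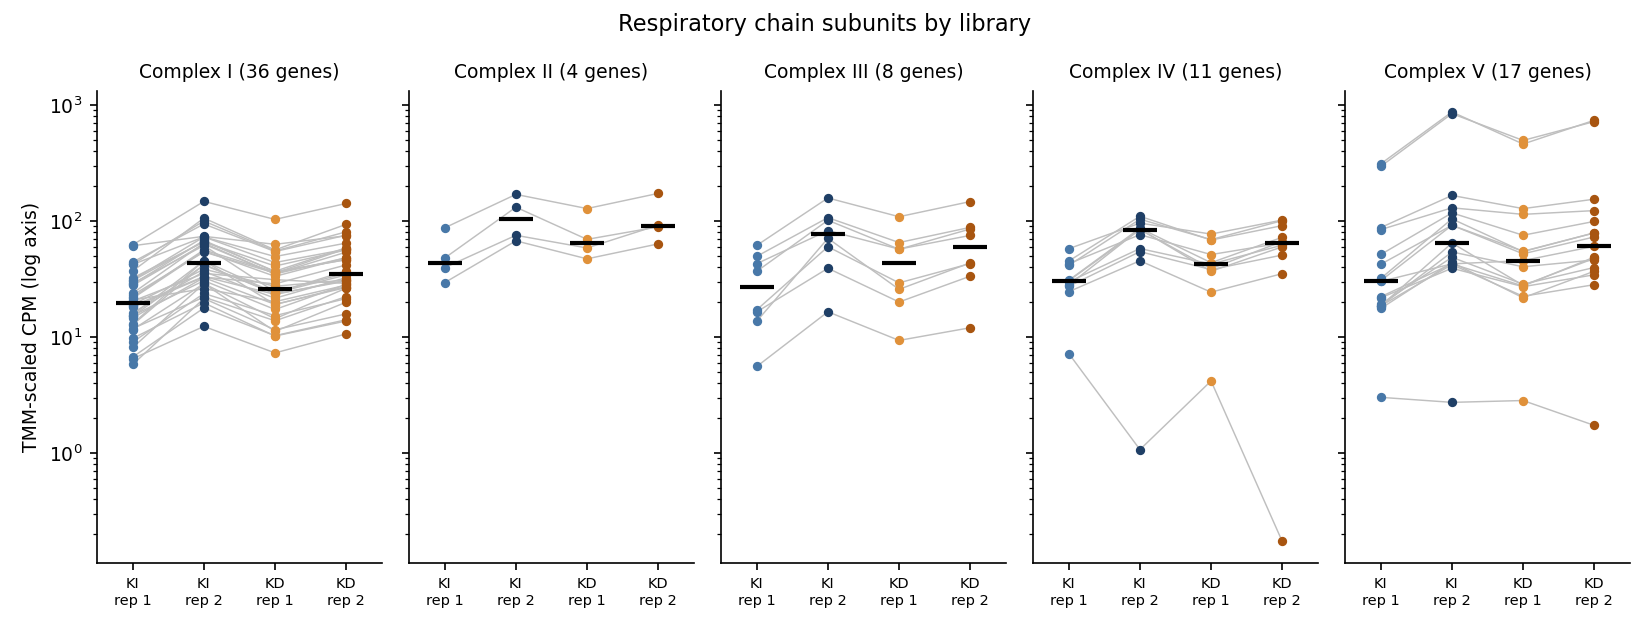
TMM-scaled CPM (log axis) of each tested subunit in the 4 libraries, 1 panel per complex, with lines joining the values of a gene and black bars at the median of the panel. Nearly all lines rise from KI replicate 1 to KI replicate 2 and from KD replicate 1 to KD replicate 2; Cox6b2 and Atp5s, the lowest genes, do not follow.

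Several measures of the libraries are given beside this order. Some set 1 library apart, and others set the genotypes apart. KI replicate 1 had 4581593 gene counts, against 10263454 to 11934542 in the other 3, and its share of uniquely aligned reads in no gene was 88.3%, against 63.2% to 68.3%. The sum over chemosensory receptor genes (Olfr, Vmn and Tas symbols), a class with no known role in blood, was 979 CPM there and 143 to 237 CPM elsewhere. Protein-coding genes held 53.8% and 50.5% of gene counts in the KI libraries and 73.4% in both KD libraries. The targeted gene, Gfi1, read 36.2 and 89.0 CPM in KI and 7.22 and 1.12 CPM in KD, lower in both KD libraries (log2 fold change -3.89 ± 0.95 SE, adjusted p = 0.518 by edgeR and 0.0012 by DESeq2). Late neutrophil markers summed to 17112 and 17754 CPM in KI and to 3769 and 1841 CPM in KD, with 11 of 12 lower in both KD libraries and none at 0. Erythroid markers summed to 556 and 598 CPM in KI and to 83.1 and 4.15 CPM in KD, with 13 of 14 lower in both KD libraries and Hba-a1, Epor and Car1 at 0 in KD replicate 2. Monocyte and macrophage markers summed to 7776 and 3774 CPM in KI and to 9096 and 7796 CPM in KD. All 12 had a positive log2 fold change, and 8 were higher in both KD libraries. KI replicate 2 had the lowest sum. Lyz2 gave much of each sum, with 4756 and 2019 CPM in KI and 4738 and 3381 CPM in KD. T cell markers summed to 97.4 and 76.2 CPM in KI and to 14.8 and 23.3 CPM in KD, with 6 of 11 lower in both KD libraries and none at 0. Cd3e alone gave 37.3 of the 76.2 CPM in KI replicate 2. Beside the counts of these lists, the groups were apart for 38.0% of all genes tested. B cell markers summed to 106 and 115 CPM in KI and to 116 and 175 CPM in KD. Of 5 tested, 4 had a negative log2 fold change. Ighm, the 1 positive, gave 59.6 and 82.5 CPM in KI and 97.0 and 151 CPM in KD. Stromal markers summed to 97.9 and 47.9 CPM in KI and to 64.7 and 90.1 CPM in KD. Of 7 tested, 6 were negative. Pecam1, the 1 positive, gave 35.3 and 36.8 CPM in KI and 54.2 and 80.8 CPM in KD. The part of these measures in the subunits' levels was not tested, and in bulk RNA fewer cells of a type and less RNA per cell cannot be told apart.

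The scaling of the libraries set the sign of the small differences. With TMM 36 subunits were positive and 40 negative, with RLE scaling 58 and 18, with upper quartile scaling 25 and 51, with scaling over protein-coding genes 62 and 14, and with library size alone 74 and 2. The median over all genes moved with it, from -0.06 to 0.02, -0.14, 0.11 and 0.37 in the same order. With library size alone, 24 subunits were higher in both KD libraries, beside 55.1% of all genes in which the groups were apart.

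Complex I, the NADH dehydrogenase, had 36 tested subunits, 15 positive and 21 negative, with a median log2 fold change of -0.01. Its summed level was 829 and 1839 CPM in KI and 1113 and 1562 CPM in KD, with the KI values outside the KD values on both sides. The core subunits carry the flavin and the iron-sulfur clusters. Of these, Ndufs8, an iron-sulfur subunit of the arm that leads to ubiquinone, read 18.1 and 32.9 CPM in KI and 28.7 and 41.8 CPM in KD. The groups overlap, and the log2 fold change was 0.46 ± 0.42 SE (adjusted p = 0.849, edgeR). Ndufs1, the largest iron-sulfur subunit, read 61.2 and 73.8 CPM in KI and 63.0 and 74.6 CPM in KD. Of the tested complex I subunits, it had the smallest fold between the KI libraries. Ndufv1, the flavin-binding subunit, read 37.1 and 106 CPM in KI and 56.3 and 93.6 CPM in KD. Log2 fold changes of Ndufs3, Ndufs7 and Ndufv2, also core subunits, were -0.05, 0.02 and -0.05.

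The complex I gene with the lowest p was Ndufv3 (ENSMUSG00000024038, chr17:31520115-31531326, GRCm38), an accessory subunit of the NADH-binding module. It read 29.0 CPM (replicate 1) and 61.5 CPM (replicate 2) in KI, and 24.5 CPM (replicate 1) and 35.5 CPM (replicate 2) in KD, a mean of 45.2 ± 23.0 in KI and 30.0 ± 7.80 in KD (SD, n = 2 each). KI replicate 2 was highest, and KI replicate 1 lay between the KD libraries, so the groups overlap. The log2 fold change was -0.60 ± 0.45 SE (adjusted p = 0.784, edgeR), and 0.11 without KI replicate 2. Ndufb4, an accessory subunit of the membrane arm, read 9.74 and 19.7 CPM in KI and 10.2 and 13.7 CPM in KD, with a log2 fold change of -0.31 ± 0.49 SE that was 0.35 without KI replicate 2. Ndufa4 read 22.03 and 56.4 CPM in KI and 36.2 and 46.4 CPM in KD, and moving it to complex IV left the medians of both complexes at or near 0 (-0.02 and 0.01). Its paralogue Ndufa4l2 had 1, 2, 0 and 1 counts and was not tested, like Ndufa11b, Ndufb4c and Ndufs6b, which had at most 5 counts in any library. The remaining accessory subunits had log2 fold changes between -0.35 (Ndufb3) and 0.27 (Ndufa9).

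Complex II, the succinate dehydrogenase of the citric acid cycle, has no mitochondrially encoded subunit. Of its 4 genes 3 were positive, and the median log2 fold change was 0.21, which was 0.91 without KI replicate 2, -0.10 without KI replicate 1 and -0.02 without KD replicate 2. Sdhb, the iron-sulfur subunit, whose promoter is shown above, read 39.7 and 75.3 CPM in KI and 58.6 and 92.1 CPM in KD. KI replicate 1 was lowest and KD replicate 2 highest, and the log2 fold change was 0.39 ± 0.42 SE (adjusted p = 0.907, edgeR). Sdha, the flavin-bearing catalytic subunit, read 87.4 and 170 CPM in KI and 128 and 173 CPM in KD, a log2 fold change of 0.23 ± 0.40 SE that was -0.05 without KI replicate 1 and -0.01 without KD replicate 2. The membrane anchors Sdhc and Sdhd had log2 fold changes of 0.19 and -0.18, and that of Sdhc was -0.16 without KI replicate 1. The summed level was 205 and 444 CPM in KI and 303 and 418 CPM in KD.

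Complex III, the cytochrome bc1 complex, showed the common library order of the TMM-scaled levels in all 8 of its genes. Its median log2 fold change was -0.05. Its summed level was 244 and 636 CPM in KI and 373 and 528 CPM in KD. Uqcr11 is a small accessory subunit whose promoter is shown above. Of all tested subunits it had the largest fold between the KI libraries in the direction of the common order. It read 13.7 and 70.9 CPM in KI against 25.8 and 43.5 CPM in KD. Its log2 fold change was -0.30 ± 0.76 SE, and 1.39 without KI replicate 2. Uqcrc1, a core protein on the matrix side, read 61.7 and 158 CPM in KI and 109 and 147 CPM in KD (log2 fold change 0.22 ± 0.49 SE, and -0.18 without KI replicate 1). Uqcrfs1, the Rieske iron-sulfur protein, had a log2 fold change of 0.04, Uqcrc2 of -0.03 and Uqcrh, the hinge protein, of 0.07. Those of Uqcrb and Uqcrq, small subunits, were -0.07 and -0.06, and that of Uqcr10 was -0.11.

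Complex IV, cytochrome c oxidase, had 17 genes by symbol, of which 11 were tested, 5 positive and 6 negative, with a median of -0.02. The summed level was 366 and 801 CPM in KI and 495 and 707 CPM in KD. The genes that did not pass the filter are largely the isoforms known from muscle and testis. Cox6a2, Cox7a1 and Cox8b, known from heart and skeletal muscle, had at most 7 counts in any library, Cox7b2 had at most 1, and Cox8c and Cox6c2 had 0 in all 4. The ubiquitous partners were measured throughout: Cox6a1 read 29.9 and 57.9 CPM in KI and 42.5 and 61.9 CPM in KD (log2 fold change 0.25 ± 0.42 SE, and -0.03 without KI replicate 1). Cox8a read 41.5 and 104 CPM in KI and 69.2 and 100.7 CPM in KD. Cox7a2 read 28.1 and 85.1 CPM in KI and 36.9 and 59.9 CPM in KD, while Cox7a2l, which is known to join complexes III and IV into supercomplexes, read 57.7 and 96.0 CPM in KI and 77.2 and 102 CPM in KD.

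The 1 clear departure from the common order in complex IV was Cox6b2, an isoform known from testis. It read 7.19 and 1.07 CPM in KI and 4.17 and 0.17 CPM in KD, from 31, 9, 59 and 2 counts. The first replicate was high and the second low in both genotypes, so the groups overlap (log2 fold change -0.88 ± 1.51 SE, adjusted p = 0.960, edgeR). The value was 1.22 without KI replicate 1. The ubiquitous Cox6b1 moved the other way, with 45.2 and 110 CPM in KI and 68.6 and 91.3 CPM in KD. Log2 fold changes of Cox5a, Cox5b and Cox6c were 0.12, -0.02 and -0.04, and those of Cox7b and Cox7c were -0.13 and -0.24.

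Complex V, the ATP synthase, had 17 tested genes, 10 positive and 7 negative, with a median of 0.02. Its summed level was 1107 and 2800 CPM in KI and 1681 and 2412 CPM in KD. Atp5b, the catalytic beta subunit, read 312 and 873 CPM in KI and 462 and 740 CPM in KD, and Atp5a1, the alpha subunit, read 296 and 844 CPM in KI and 496 and 721 CPM in KD. Their log2 fold changes were 0.02 and 0.09. Atp5g1, Atp5g2 and Atp5g3, which encode the same mature subunit c of the rotor ring, had log2 fold changes of -0.08, 0.00 and -0.01. The remaining genes of complex V lay between -0.33 (Atp5s) and 0.24 (Atp5j2), apart from Atp5d.

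Atp5d (ENSMUSG00000003072, chr10:80138698-80145828, GRCm38), which encodes the delta subunit of the central stalk, was the 1 subunit whose groups did not overlap. It read 30.1 CPM (replicate 1) and 42.7 CPM (replicate 2) in KI, and 45.6 CPM (replicate 1) and 60.6 CPM (replicate 2) in KD, a mean of 36.4 ± 8.88 in KI and 53.1 ± 10.6 in KD (SD, n = 2 each). The gap between KI replicate 2 and KD replicate 1 was small beside the gaps within each genotype. The log2 fold change was 0.54 ± 0.33 SE (adjusted p = 0.687, edgeR), and with 38.0% of all genes apart in this way a single such gene is no result. Atp5l and Atp5k, small membrane subunits, had log2 fold changes of -0.27 ± 0.46 SE and 0.23 ± 0.46 SE, which were 0.51 without KI replicate 2 and -0.24 without KD replicate 2.

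The complexes' shares of the subunits' counts varied less between libraries than the summed level did. Shares leave out any factor common to all subunits of a library, so this contrast is partly built in. As shares of the counts of all 86 genes, complex I took 30.1% and 28.2% in KI and 28.1% and 27.8% in KD. Complex II took 7.44% and 6.81% in KI and 7.65% and 7.43% in KD, and complex III 8.87% and 9.75% in KI and 9.41% and 9.38% in KD. Complex IV took 13.3% and 12.3% in KI and 12.5% and 12.6% in KD, and complex V 40.2% and 42.9% in KI and 42.4% and 42.9% in KD. These shares rest on 11859, 54968, 56033 and 65123 counts; the exact (Clopper-Pearson) 95% interval of the complex V share was 39.4% to 41.1% in KI replicate 1 and 42.5% to 43.4% in KI replicate 2, for counting error only. The groups were apart for complex I alone, where KI replicate 2 and KD replicate 1 lay closer together than the KI libraries did. These are shares of counts, not of molecules, since longer transcripts give more counts.

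**Figure D3:**
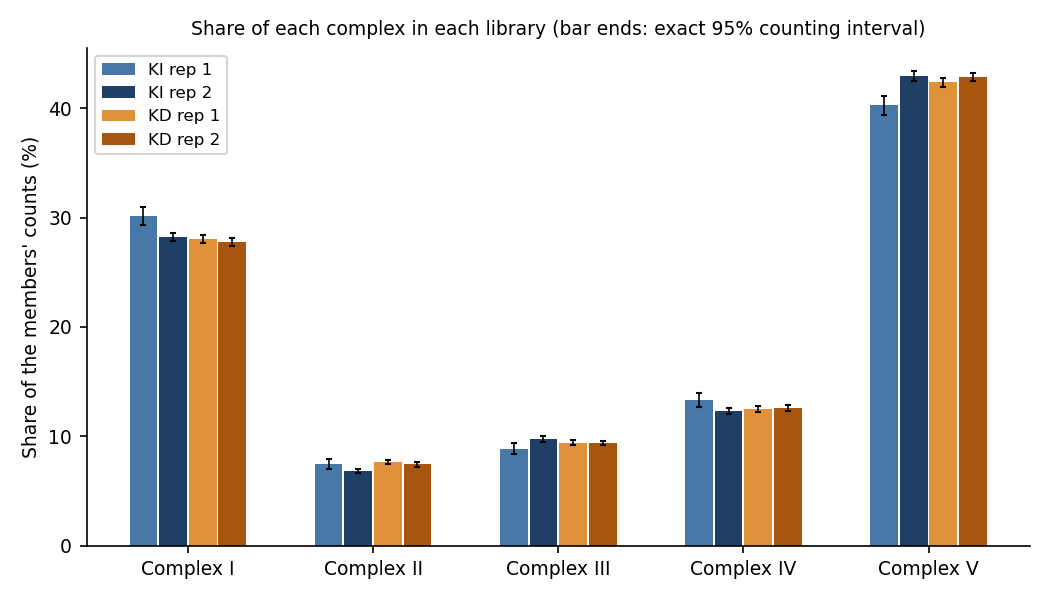
Share of each complex in the summed counts of the 86 subunits (%), 1 bar per library, with the exact 95% counting interval. Within a complex the 4 bars lie within 3 percentage points of each other, and KI replicate 1 departs most in complexes I, III, IV and V.

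Taken relative to the subunits' summed counts, 21 of the 76 genes had the groups apart (27.6%), 8 higher and 13 lower in KD, against 24.5% of all genes scaled in the same way, so the count is near the background. An edgeR fit with those sums as library sizes had 0 subunits at an unadjusted p under 0.05, against 4.07% of all genes. Ndufv3 took 1.05% and 0.942% of the subunits' counts in KI and 0.617% and 0.631% in KD. Both KD libraries were lower, and the ratio of the means on the log scale was 0.626. In the edgeR fit on the same scale the log2 fold change was -0.68 ± 0.47 SE (adjusted p = 1.00). Ndufs8 took 0.658% and 0.504% in KI and 0.725% and 0.743% in KD, and Sdhb 1.44% and 1.16% in KI and 1.48% and 1.64% in KD. Ndufb4 took 0.354% and 0.302% in KI and 0.257% and 0.244% in KD.

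**Figure D4:**
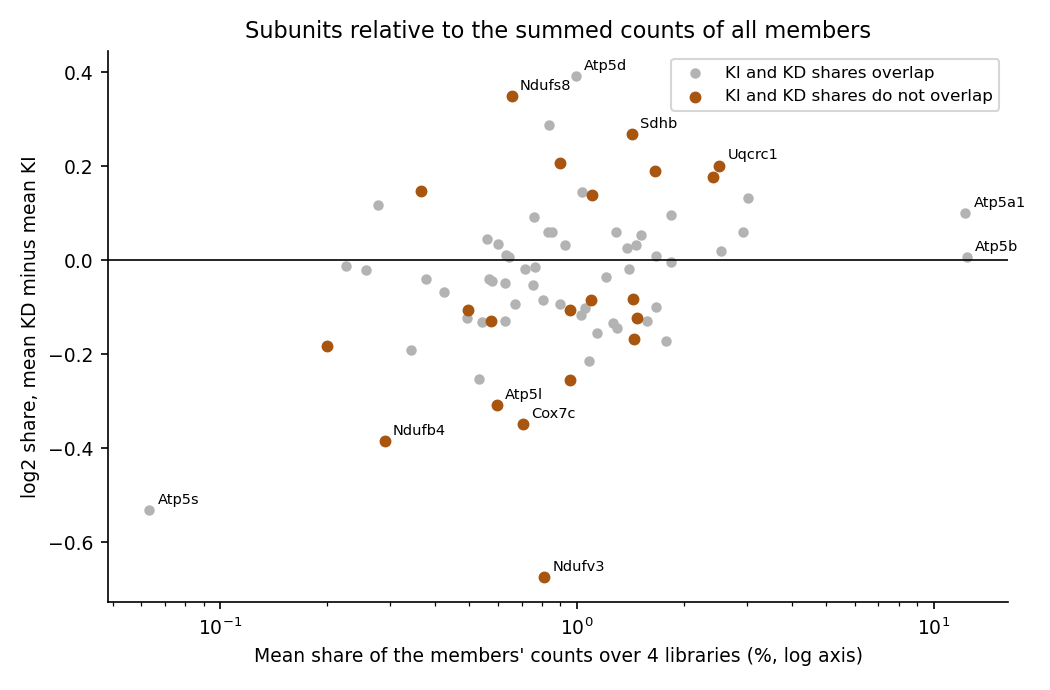
Log2 difference of the mean log share between KD and KI (y axis) against the mean share of the subunits' counts (%, log axis) for the tested subunits, orange where the KI and KD shares do not overlap; Cox6b2, at -1.86, is left out. Ndufv3 lies lowest at -0.67, and Atp5a1 and Atp5b, the genes with the most counts, lie near 0.

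In counted reads, the subunits encoded in mitochondrial DNA did not follow the nuclear ones. The file holds 13 of them and 7 were tested; mt-Nd3, mt-Nd4l, mt-Co2, mt-Co3, mt-Atp6 and mt-Atp8 had at most 6 counts in any library. Their summed level was 3721 and 2238 CPM in KI and 4468 and 2656 CPM in KD, so the first replicate was above the second in both genotypes, where the nuclear sum was below. Their counts came to 1.35 and 0.343 times those of the nuclear subunits in KI, and to 1.13 and 0.472 times in KD. The ratio thus differed within each genotype more than between them. Most of each sum was mt-Co1, with 2508 and 1665 CPM in KI and 2897 and 1957 CPM in KD. Its counts were 10812 to 40938, beside at most 6 for the untested genes. Whether reads of those genes were lost in counting was not tested, so the sums and ratios may not give transcript levels. The other tested genes also read higher in the first replicate in both genotypes, except mt-Nd6 in KD. mt-Cytb, the cytochrome b of complex III, read 292 and 147 CPM in KI and 448 and 232 CPM in KD. mt-Nd6, the complex I gene on the other strand of the mitochondrial genome, read 70.5 and 24.0 CPM in KI and 16.1 and 18.9 CPM in KD (log2 fold change -1.43 ± 0.55 SE, adjusted p = 0.518, edgeR). Both KD libraries were lower, but counts of genes on opposite strands cannot be told apart without the strand setting, which is not given in the sources used here.

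Among the subunits outside the rule, Cox4i1 read 106 and 253 CPM in KI and 161 and 225 CPM in KD, and Cyc1, cytochrome c1 of complex III, 27.1 and 61.5 CPM in KI and 35.3 and 47.9 CPM in KD, both in the order of the other subunits. Cycs, cytochrome c itself, read 20.2 and 37.5 CPM in KI and 32.0 and 44.8 CPM in KD. Ndufab1, the acyl carrier protein that also sits in complex I, differed little between the 4 libraries, at 15.1, 16.5, 14.6 and 15.1 CPM. Cox4i2 had at most 4 counts and was not tested.

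Other genes of the pathway were taken from fixed lists, and edgeR called 0 genes in each of them. Mitochondrial ribosomal proteins (76 tested, median log2 fold change -0.04) and genes of import and of inner membrane carriers (21 tested, -0.12) had KI replicate 2 above KI replicate 1 by median folds of 1.95 and 2.23, near the 2.30 of the subunits. The 13 genes of the citric acid cycle (0.07) had 1.87, the 45 assembly factors (0.02) 1.44 and the 12 regulators of mitochondrial biogenesis (-0.04) 1.48. The 17 genes of glycolysis (0.24) had 1.64, above the assembly factors and the regulators. KI replicate 1 was lowest and KI replicate 2 highest in 50 of the 76 ribosomal genes, 18 of the 21 import and carrier genes and 14 of the 45 assembly factors, beside 61 of the 76 subunits and 17.3% of all genes. Nrf1, which encodes the factor of the NRF1 motif, read 68.6 and 76.4 CPM in KI and 76.2 and 72.8 CPM in KD. It is named after its values were seen, and its 4 levels were close.

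Over these lists, the genes with the lowest p went both ways. Sdhaf3, an assembly factor of complex II, read 7.19 and 6.17 CPM in KI and 1.70 and 2.77 CPM in KD (log2 fold change -1.58 ± 0.63 SE, adjusted p = 0.518, edgeR), while the complex II genes themselves overlapped. Ndufaf1, an assembly factor of complex I, read 8.12 and 13.6 CPM in KI and 5.94 and 6.998 CPM in KD. Ppargc1b, a coactivator of mitochondrial genes, read 6.03 and 10.7 CPM in KI and 4.67 and 5.36 CPM in KD. These 3 were lower in both KD libraries, whereas Mrpl4 and Ogdh were higher in both. Mrpl4, of the mitochondrial ribosome, read 18.3 and 30.5 CPM in KI and 33.1 and 42.2 CPM in KD (log2 fold change 0.62 ± 0.38 SE, adjusted p = 0.681, edgeR). Ogdh, a subunit of the oxoglutarate dehydrogenase of the citric acid cycle, read 107 and 149 CPM in KI and 154 and 170 CPM in KD (log2 fold change 0.33 ± 0.30 SE, adjusted p = 0.843, edgeR). The groups overlap for the other genes chosen in this way: citrate synthase Cs had a log2 fold change of 0.40, the ATP/ADP carrier Slc25a4 of 0.70, the import subunit Timm17a of -0.47, Mrps5 of -0.55 and Gabpa of -0.27. In glycolysis, 12 of 17 genes were positive with a median of 0.24, which was 0.02 without KI replicate 1, 0.59 without KI replicate 2 and -0.14 without KD replicate 2. Slc2a3, a glucose transporter, read 157 and 146 CPM in KI and 39.3 and 19.4 CPM in KD. It was lower in both KD libraries, with a log2 fold change of -2.36 ± 0.41 SE (adjusted p = 0.518 by edgeR and 0.0013 by DESeq2). Hk2, a hexokinase, read 135 and 92.4 CPM in KI and 162 and 157 CPM in KD (log2 fold change 0.49 ± 0.30 SE, adjusted p = 0.684, edgeR). The late neutrophil and erythroid marker sums given above were lower in the same KD libraries as Slc2a3, and their part in its level was not tested.

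**Figure D5:**
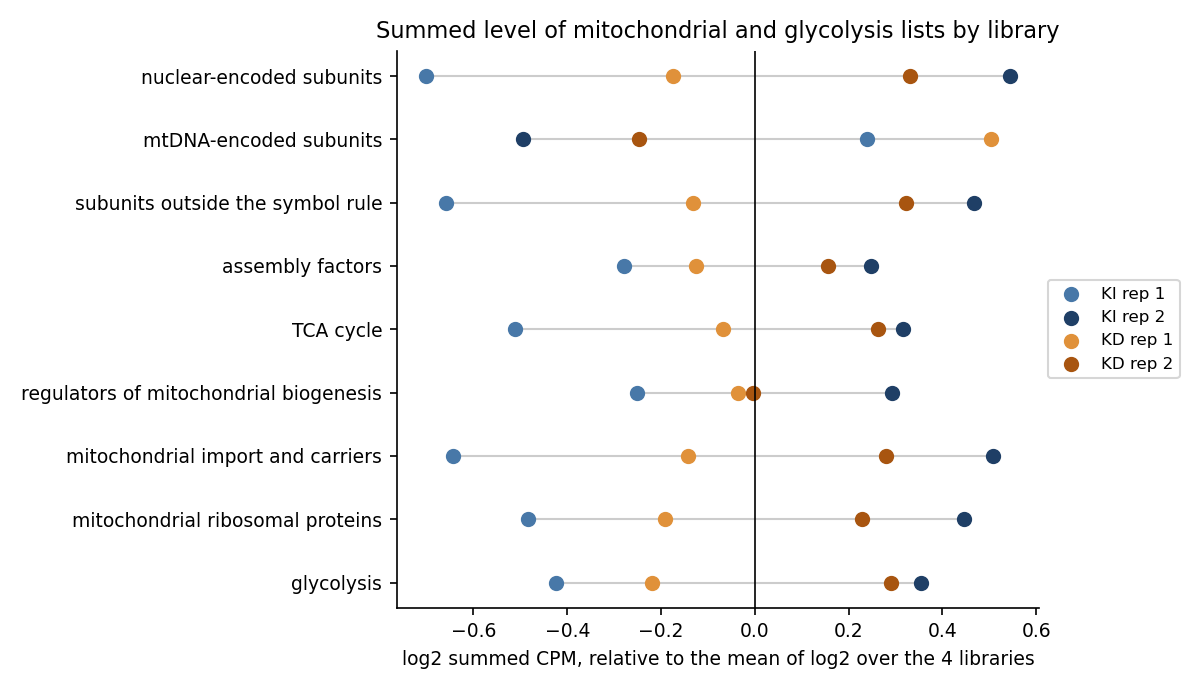
Log2 of the summed CPM of each list in each library, relative to the mean of the 4 log2 values, for the nuclear-encoded subunits and the related lists. With TMM scaling KI replicate 1 (light blue) lies lowest and KI replicate 2 (dark blue) highest in all lists but the subunits encoded in mitochondrial DNA, where KI replicate 2 is lowest and KD replicate 1 highest.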

How the data were processed

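RNA libraries (TruSeq Stranded mRNA, per the labels) of 4 mice were analysed. The values the authors deposited are raw gene counts. The submitters' processing notes name TopHat2 2.0.10, SAMtools, HTSeq, DESeq and the build GRCm38; which strand was counted, and on which annotation release, is a point the sources used here do not give. Summary entries that name no gene, 93.2% to 97.9% of each library's total, were left out. The 4 tables of the 8 chromatin libraries have 1616 value columns that name neither antibody nor mouse, and are not used here. The 3 counts taken as a floor are 0.212 to 0.696 CPM.

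The counts were filtered with filterByExpr, given TMM factors (0.957, 0.778, 1.19 and 1.13), and tested by the functions glmQLFit and glmQLFTest of edgeR 4.0.16 in R 4.3.3, with genotype as the only term, on all genes, with Benjamini-Hochberg adjustment at 0.05. CPM values are TMM-scaled, and this fit gave the log2 fold changes of KD over KI and their standard errors. The scripts were tested on simulated data. Alternatives were other scalings and filters, DESeq2 1.42.0, limma-voom (limma 3.58.1), the replicate number as a block and leaving out each library. Nothing but the mouse is said to separate the replicates. With 1 library per mouse, the p-values measure the spread between the 4 libraries, where mouse and library preparation cannot be told apart.

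Symbols came from a gene name reference matched by gene identifier. GRCm38 positions came from RefSeq, which matched all 86 members by symbol or synonym. Exon lengths and proteins are not used here, so levels are not compared between genes. Members, lists and rules were chosen with earlier results of these data known. Genes named were those with the 3 lowest p in each complex, the core subunits, paralogue sets, members with a log2 fold change of at least 1, the 2 lowest p in each related list, and Gfi1; the subunits outside the symbol rule were all named, and Atp5s, Cox6c2 and Nrf1 were named after their values were seen. One gene is part of the counts and sums but is not reported here.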

Additional observations from a re-analysis of the deposited data

How the results depend on the processing

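The count of subunits called was 0 in all 15 settings tried. edgeR called 0 of all 13822 genes too, so this count does not show that the subunits were unchanged. Where a library was left out, the lone library of that genotype was assumed to vary like those of the other. Leaving out 1 library moved the medians and sums, most often upwards without KI replicate 2 and downwards without KI replicate 1. The median log2 fold change ranged from -0.34 to 0.83 over all subunits, from -0.37 to 0.75 in complex I, from -0.10 to 0.91 in complex II, from -0.41 to 1.00 in complex III, from -0.27 to 0.83 in complex IV and from -0.34 to 0.83 in complex V. The log2 ratio of the summed levels ranged from -0.33 to 0.85 over all subunits, from -0.35 to 0.74 in complex I, from -0.19 to 0.87 in complex II, from -0.39 to 0.93 in complex III, from -0.30 to 0.76 in complex IV and from -0.34 to 0.93 in complex V. List medians ranged from -0.29 to 1.35 for subunits encoded in mitochondrial DNA, from -0.14 to 0.80 for subunits outside the rule, from -0.14 to 0.41 for assembly factors, from -0.15 to 0.66 for the citric acid cycle, from -0.11 to 0.27 for regulators, from -0.49 to 0.84 for import and carriers, from -0.14 to 0.59 for glycolysis and from -0.28 to 0.63 for mitochondrial ribosomal proteins. Single genes ranged from -0.91 to 0.11 for Ndufv3, -0.59 to 0.35 for Ndufb4, -0.047 to 0.84 for Sdha, -0.16 to 0.97 for Sdhc, -0.18 to 1.11 for Uqcrc1, -0.92 to 1.39 for Uqcr11, -0.20 to 0.69 for Uqcrh, -4.44 to 1.22 for Cox6b2, -0.049 to 0.86 for Cox6a1, -0.61 to 0.51 for Atp5l, -0.24 to 0.83 for Atp5k, -0.11 to 0.050 for Ndufab1, -0.38 to 0.092 for Gabpa and -0.94 to 0.22 for Mrps5. With library size only, 24 subunits had the groups apart (55.1% of all genes did), the medians were 0.45 for assembly factors, 0.52 for the citric acid cycle, 0.40 for regulators and 0.68 for glycolysis, and Ndufb4 (0.16), Uqcr11 (0.21), Atp5l (0.21), Ndufab1 (0.34) and Gabpa (0.18) turned positive. With scaling over protein-coding genes, 3 subunits had the groups apart (Atp5d, Ndufs1 and Ndufs8), beside 41.8% of all 12215 genes, and Ndufab1 was 0.056; with no low-count filter it was 0.10. The replicate numbers pair no animals, and the difference between the replicates correlated between the genotypes at 0.305 over all genes and 0.783 over the subunits, as a description. With the replicate number as a block, the median over the subunits was 0.11, 0 were called and Uqcr11 was 0.060. Of 412 gene values in alternative settings, 382 kept their sign. The cause of these changes was not tested.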
